A study of Mus musculus and Homo sapiens with 9 samples.

Results

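The nuclear genes for subunits of the mitochondrial respiratory chain and ATP synthase were examined for binding of thymine DNA glycosylase (TDG) and of p53 in B16 mouse melanoma cells. They were chosen by gene symbol alone, as the protein-coding genes of the RefSeq annotation of GRCm38.p6 (the build of mm10) whose symbols begin with Nduf and a subunit letter and number, Sdh and a subunit letter, Uqcr, Cox and a subunit number and letter, or Atp5. The pattern gave 91 genes of 21887 protein-coding genes on placed chromosomes. They comprised 38 genes of complex I, 4 of complex II, 8 of complex III, 20 of complex IV and 17 of complex V. The pattern also took in the 4 Sdhaf genes, which encode assembly factors of complex II and not subunits. Ndufa4 and Ndufa4l2 were counted with complex IV, to which their products belong. The mitochondrially encoded subunits were not among the members.

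The series located proteins on DNA by chromatin immunoprecipitation and sequencing (ChIP-seq), which isolates the DNA fixed to a protein with an antibody and reports regions of enrichment as peaks. Of its 9 samples, each a group of its own, 2 had peak lists that were used here. Both came, by their labels, from B16 cells with an HA tag knocked in at Tdg, with no treatment named. The peak names of the p53 list carry a prefix containing WT, and the label was followed. An HA antibody against the tagged TDG gave 3410 peaks and a p53 antibody gave 126. The library of the HA antibody in untagged wild-type B16 cells, the p53 antibody library of Trp53 knockout cells, the input and the IgG library were not analysed here, so whether a peak depends on the tag or on p53 was not tested. Each list stood for 1 library with no replicate, and no library total was given with it. The labels do not say whether the knock-in line was a single clone. A peak list does not measure expression, so the labelled cell type was not checked by it. Of 7 melanocyte marker genes, Mitf and Pmel had a TDG peak at an end (28.6%, exact interval 3.67 to 71.0%), and the others had none. That interval held the 12.8% of other protein-coding genes on the same chromosomes, so the count says nothing of the cell type.

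The respiratory chain passes electrons from NADH and succinate to oxygen through complexes I to IV, and ATP synthase (complex V) uses the proton gradient that this builds. Most of its subunits are encoded in the nucleus, and many of their promoters hold sites for NRF1 (nuclear respiratory factor 1) and for GABP, a factor of the ETS family. TDG is a DNA repair enzyme that removes thymine from mismatches and oxidised forms of methylcytosine, and it also acts with transcription coactivators at promoters. p53 is a transcription factor activated by DNA damage, and the complex IV assembly factor gene Sco2 is among its known targets.

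TDG was found at an end of 14 of the 91 genes, that is, with the summit of a peak within 1 kb of either end of the annotated gene. This was 15.4% of the members (exact binomial 95% interval 8.67 to 24.5%, counting error only). The background was 12.8% of the 20689 other protein-coding genes on the same chromosomes. The share of the members was near this background, and the background lay inside its interval. No test of the list as a set was made.

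The sequences before the starts of 6 genes are printed as picked examples, which do not stand for the promoters of the members at large. Ndufb4 and Sdhb held the highest TDG peaks at member ends. Ndufv3 and Ndufa11 shared their peak with a gene that runs the other way from a nearby start. Atp5g2 was added after its values had been seen, because its summit fell on an NRF1 motif, and Ndufv2, with no TDG peak at an end, is shown for contrast. The sequences are from RefSeq (GRCm38.p6), run 5′ to 3′ on the strand of the gene, end at the base before the annotated start and stop short of any other annotated gene. The Ndufa11 peak lies beyond its printed stretch. Capitals mark every match, on either strand, to the motifs searched.
Ndufb4 (chr16:37654369-37654618, minus strand): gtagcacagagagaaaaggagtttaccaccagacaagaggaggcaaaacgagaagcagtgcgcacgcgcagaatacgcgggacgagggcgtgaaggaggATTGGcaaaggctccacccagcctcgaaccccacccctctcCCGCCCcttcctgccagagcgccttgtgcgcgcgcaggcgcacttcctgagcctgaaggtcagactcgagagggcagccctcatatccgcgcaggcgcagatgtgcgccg
Sdhb (chr4:140961021-140961270, plus strand): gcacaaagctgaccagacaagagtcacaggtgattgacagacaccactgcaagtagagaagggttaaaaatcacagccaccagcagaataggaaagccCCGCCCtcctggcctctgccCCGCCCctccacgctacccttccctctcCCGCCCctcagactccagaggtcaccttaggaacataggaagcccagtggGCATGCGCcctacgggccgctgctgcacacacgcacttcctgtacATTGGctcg
Ndufv3 (chr17:31519986-31520114, plus strand, up to the start of Wdr4): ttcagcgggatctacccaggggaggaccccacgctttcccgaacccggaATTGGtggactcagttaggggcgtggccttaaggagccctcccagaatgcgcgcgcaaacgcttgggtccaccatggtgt
Ndufa11 (chr17:56717700-56717761, plus strand, up to the start of Vmac): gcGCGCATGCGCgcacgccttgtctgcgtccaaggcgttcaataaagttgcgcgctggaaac
Atp5g2 (chr15:102671048-102671297, minus strand): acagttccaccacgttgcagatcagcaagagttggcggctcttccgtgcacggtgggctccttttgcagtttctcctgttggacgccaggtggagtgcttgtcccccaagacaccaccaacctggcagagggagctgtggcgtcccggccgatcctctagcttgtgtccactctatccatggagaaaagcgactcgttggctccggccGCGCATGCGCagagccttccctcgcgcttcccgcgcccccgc
Ndufv2 (chr17:66101560-66101809, minus strand): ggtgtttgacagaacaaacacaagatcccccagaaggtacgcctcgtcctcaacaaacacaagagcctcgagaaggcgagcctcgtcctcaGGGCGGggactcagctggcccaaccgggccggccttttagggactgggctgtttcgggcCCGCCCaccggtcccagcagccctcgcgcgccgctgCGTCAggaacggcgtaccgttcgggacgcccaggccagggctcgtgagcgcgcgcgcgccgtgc

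Complex I, the NADH dehydrogenase at the entry of the chain, had 7 of its 38 genes with a TDG peak at an end (18.4%, exact interval 7.74 to 34.3%). They were Ndufb4, Ndufb6, Ndufb9, Ndufv3, Ndufa6, Ndufa11 and Ndufs1. All but Ndufs1 encode accessory subunits, which surround the catalytic core. Of the 7 nuclear genes for the core, a list added after the values were seen, Ndufs1 had a peak and the others had none. This share (14.3%, exact interval 0.361 to 57.9%) was near the background of 12.8%, so the count does not set the core apart. Ndufs1 encodes the large iron-sulfur subunit of the electron input arm.

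The peak at Ndufb4 was the highest at any member (chromosome 16, 37654363 to 37654628), with a fold enrichment of 9.11 in the authors' list. This value is a ratio of summit to local background that the peak caller takes after scaling the reads down and adding a constant to both, so it is lower than the plain ratio of reads and is comparable within the list only. It rested on 34 reads at the summit (exact Poisson 95% interval 23.5 to 47.5) over a background of 2.56. Here and below, reads at summits are whole reads, while backgrounds are in reads as scaled down by the peak caller. Of the other 2275 TDG peaks at gene ends, 94.9% had a lower fold. Ndufb4 encodes an accessory subunit of the membrane arm, and no other gene end lay within 1 kb of the summit. The Ndufb4b and Ndufb4c genes, which carry the same root symbol, had no TDG peak at an end.

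The other complex I peaks were of middling height, apart from Ndufs1. Fold enrichment was 6.72 at Ndufb6, 6.48 at Ndufv3, 6.33 at Ndufa6, 6.28 at Ndufa11 and 5.99 at Ndufb9. The summit of Ndufb9 held 22 reads over the genome-wide background, and 175 of the 3410 TDG peaks had exactly the same fold. Ndufs1 was lowest of all members with a peak (3.71-fold, 19 reads over a background of 4.00), a value below which only 1.89% of the other gene-end peaks fell. The read intervals of Ndufb4 (23.5 to 47.5) and Ndufs1 (11.4 to 29.7) overlapped, although their local backgrounds also differed.

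Complex II, succinate dehydrogenase, is both an enzyme of the tricarboxylic acid cycle and an entry point of electrons. Of Sdha, Sdhb, Sdhc and Sdhd, only Sdhb had a TDG peak at an end. Sdhb encodes the iron-sulfur subunit. Its peak (chromosome 4, 140960939 to 140961421) reached 7.87-fold with 43 reads at the summit, the most reads at any member. The −log10 q of 19.6 was also the highest among members. Of the 4 Sdhaf genes, Sdhaf3, whose product helps Sdhb mature, had a peak of 4.94-fold (31 reads over a background of 5.00), while Sdhaf1, Sdhaf2 and Sdhaf4 had none.

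Complexes III and IV had shares near the background of 12.8%. In complex III (cytochrome c reductase) 1 of 8 genes had a peak (12.5%), Uqcrq, which encodes a small subunit (6.85-fold, 36 reads). In complex IV (cytochrome c oxidase) 2 of 20 did (10.0%), Cox5b (5.73-fold, 21 reads) and Ndufa4 (4.45-fold, 23 reads). None of the 8 tissue-restricted isoform genes (Cox4i2, Cox6a2, Cox6b2, Cox7a1, Cox7b2, Cox8b, Cox8c and Ndufa4l2) had a peak at an end, a count too small to set against the background (exact interval 0 to 36.9%).

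In complex V, the ATP synthase, 2 of 17 genes had a TDG peak, and both encode subunit c, which forms the rotating ring. The subunit c genes were grouped after the values were seen. The exact interval of their share, 2 of 3 genes, was 9.43 to 99.2% and held the background of 12.8%. Atp5g1 and Atp5g2 differ in their targeting sequences but yield the same mature protein, as does Atp5g3. Atp5g2 had 2 separate peaks, of 6.11-fold with 32 reads and of 4.70-fold with 17 reads, and was the only member with more than a single peak at an end. Atp5g1 had a peak of 5.56-fold with 23 reads. The summit nearest to Atp5g3 was 15605 bases away.

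The shares of the complexes came with wide intervals, because each complex has few genes. The share was 18.4% in complex I, 1 of 4 genes in complex II, 12.5% in complex III, 10.0% in complex IV and 11.8% in complex V. Each of the exact intervals held the background of 12.8%, and all of them overlapped. The differences between complexes were not tested.

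**Figure D1:**
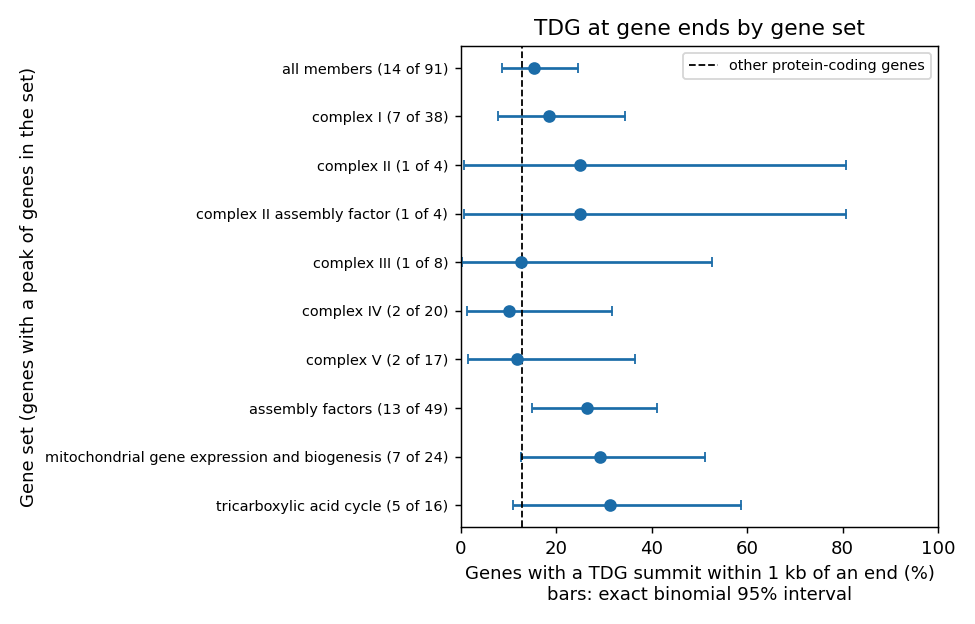
Share of genes with a TDG summit within 1 kb of an end (x axis, %) for the members, their complexes and 3 further gene lists (y axis); points are shares, bars are exact binomial 95% intervals and the dashed line is the share of the 20689 other protein-coding genes. The members (15.4%) sit near the line at 12.8%, and the interval of the assembly factors (14.9 to 41.1%) lies above it.

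In height, the member peaks resembled other TDG peaks at gene ends. The 15 peaks at member ends had a median fold enrichment of 6.11 (range 3.71 to 9.11), and the 2275 other gene-end peaks had a median of 5.99 with quartiles of 5.14 and 6.94. Of the 15, 9 lay between those quartiles, 2 above and 4 below. The median width was 476 bases for member peaks and 433 bases for the others. The median number of reads at the summit was 27 against 24.

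**Figure D2:**
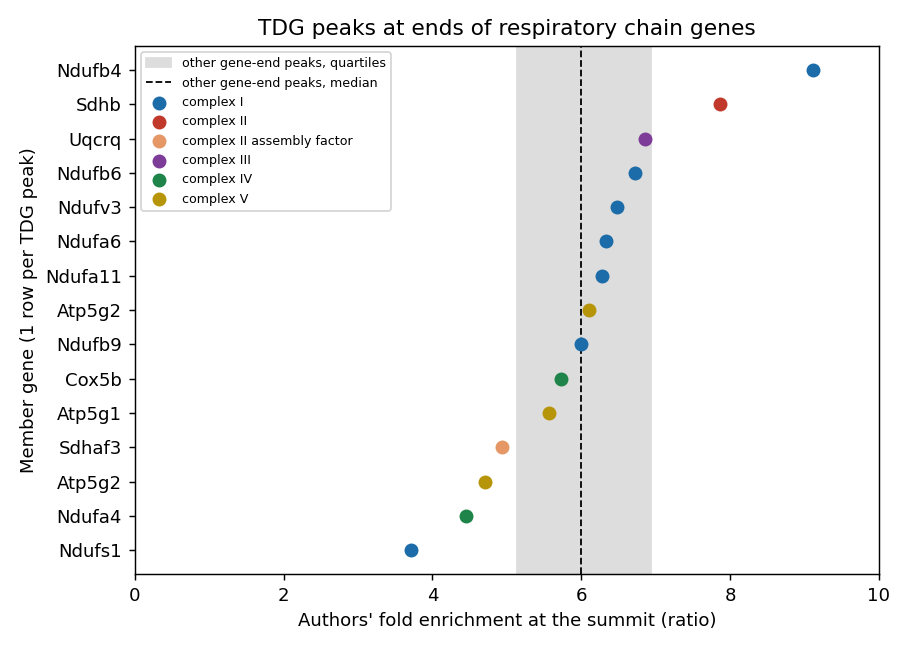
Authors' fold enrichment (x axis, ratio) of each of the 15 TDG peaks at member ends (y axis, gene), coloured by complex, with the quartiles (grey band, 5.14 to 6.94) and median (dashed line, 5.99) of the 2275 other gene-end peaks. Only Ndufb4 and Sdhb lie to the right of the band.

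Where the strand was known, the peaks were almost always at the start of the gene. The promoter table gave a start for 74 of the 91 members and for 11 of the 14 with a peak. In 10 of these 11 the summit was at the start end. The exception was Ndufb6, whose peak lay 802 bases outside its stop end and 52 bases from the start of Topors, a gene for a ubiquitin and SUMO ligase. Over genes with a listed start, a summit was at either end of 11 of 74 members (14.9%) and of 13.5% of 16519 other genes. At the annotated end on the start side it was at 10 of 74 members (13.5%) and 13.0% of the others, both counts added after the data had been seen. Within 1 kb of any listed start, inner starts included, the shares were 13.5% and 14.3%. The members were near the background each time.

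Most summits were close to the gene end itself, which was not particular to the members. Of the other protein-coding genes, 10% had a summit within 301 bases of an end and 12.8% within 1 kb. In 11 of the 15 member peaks the summit was within 300 bases of the gene end. It lay 23 bases inside Ndufa4, 32 bases inside Ndufb9, 40 bases inside Sdhb, 39 bases outside Atp5g2 for its higher peak and 40 bases outside Ndufa6. The farthest were the second Atp5g2 peak at 723 bases and Ndufb6 at 802 bases, which was the last member inside the 1 kb limit. The nearest member outside the limit was Ndufs6, 2766 bases from a summit.

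**Figure D3:**
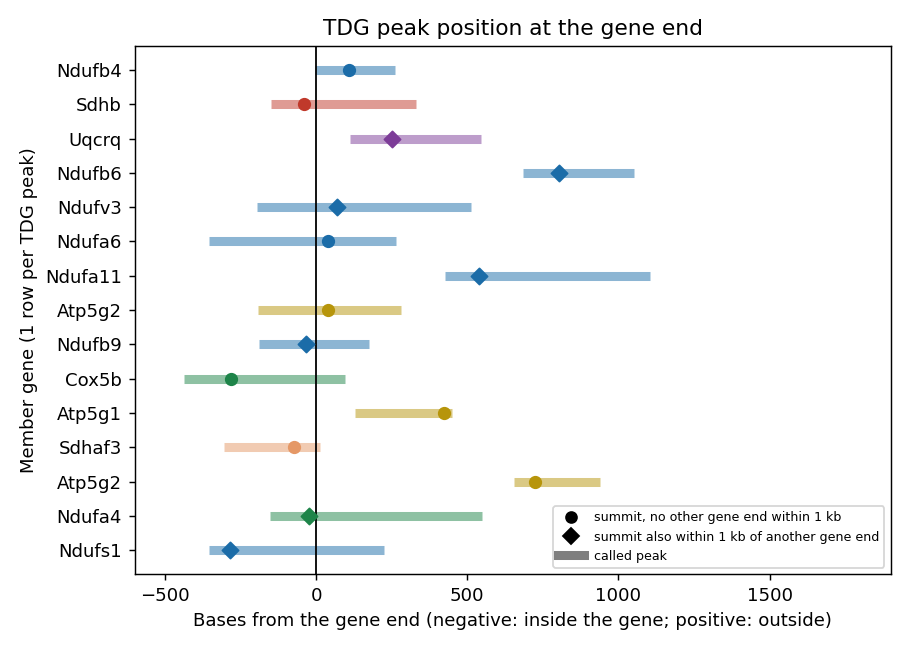
Position of the 15 TDG peaks relative to the gene end they lie at (x axis, bases; negative is inside the gene and positive outside) for each member (y axis); bars are the called peaks, points the summits, and diamonds mark summits that were also within 1 kb of another gene's end. Summits cluster near 0, and Ndufb6, Ndufa11 and the second Atp5g2 peak stand farthest out.

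Many of these peaks could not be given to a single gene. For 7 of the 14 members with a TDG peak (exact interval of the share 23.0 to 77.0%), the summit was also within 1 kb of an end of another protein-coding gene. The same held for 32.4% of the 2649 other genes with a peak, a share that lay inside the interval. The neighbours were Gdf9 at Uqcrq, Topors and Smim27 at Ndufb6, Wdr4 at Ndufv3, Vmac at Ndufa11, Tatdn1 at Ndufb9, Phf14 at Ndufa4 and Eef1b2 at Ndufs1. The summit was nearer to the member in 4 of these 7 cases and nearer to the neighbour at Ndufb6, Ndufv3 and Ndufa11.

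At Ndufv3 the summit lay between the starts of the pair, 70 bases from Ndufv3 and 60 bases from Wdr4, a cofactor gene of tRNA methylation. The whole stretch between these starts is the Ndufv3 sequence printed above. At Ndufa11 the summit was 540 bases before the start and 477 bases inside Vmac, outside the printed stretch between their starts. At Ndufs1 it lay 285 bases inside the gene and 294 bases from the start of Eef1b2, which encodes a translation elongation factor subunit. Which gene of such a pair a peak belongs to cannot be told apart in these data.

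Gene pairing itself was common among the members. Another protein-coding gene ended or began within 1 kb of an end in 50 of 91 members (54.9%, exact interval 44.2 to 65.4%) and in 5179 of the 20689 other genes, a comparison chosen after the data had been seen. Among paired genes, 7 of 50 members (exact interval of the share 5.82 to 26.7%) and 22.8% of the others had a TDG peak at an end. Among unpaired genes the shares were 7 of 41 members (17.1%, exact interval 7.15 to 32.1%) and 9.47% of the others. The members were thus below the background in the first class and above it in the second, and in both classes the background was inside the interval.

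The composition of the promoter also went with TDG peaks across the genome. Promoter windows of 250 bases before to 50 bases after the start were called CpG-rich where GC reached 55% and the observed to expected ratio of CpG 0.6, limits chosen after the data had been seen. Of the 74 members with a listed start, 46 were CpG-rich (62.2%), against 41.3% of all 17486 protein-coding genes in it. Among CpG-rich windows TDG was at an end of 8 of 46 members (17.4%, exact interval 7.82 to 31.4%) and of 24.5% of 6921 other genes. Among the rest it was at 3 of 28 members (10.7%, exact interval 2.27 to 28.2%) and 5.54% of other genes. Set beside other genes with CpG-rich promoters, the members therefore had the lower share, with the background inside the interval.

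Members with and without TDG had similar medians of base composition. The 11 with a peak and a listed start had a median of 20 CpG in the window (range 14 to 27) and a median GC of 59.7%. The 63 without a peak had a median of 19 CpG (range 2 to 44) and a median GC of 57.0%. The ranges overlapped. Ndufv2, a core complex I gene with 28 CpG in the 250 bases printed above, had its nearest TDG summit 193783 bases away.

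Motifs of the factors known for these promoters were then counted in the same windows, on both strands. The NRF1 motif was searched as GCATGCGC and as a longer palindromic form, which adds GC at its 5′ end and so contains it. The shorter form was in 10 of 74 members (13.5%) and in 3.61% of all protein-coding promoters in the table. It was in 4 of the 11 members with a TDG peak, Sdhb, Ndufa6, Atp5g2 and Ndufa11, and in 6 of the 63 without. Of the 2228 other genes with a TDG peak at an end, 6.42% held it. The longer form was in 5 members (6.76%, against 1.33% of all promoters), among them Atp5g2 and Ndufa11.

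The ETS motif CCGGAAG was in 19 of 74 members (25.7%) and 11.9% of all promoters. It was in 3 of 11 members with a TDG peak (27.3%) and 16 of 63 without (25.4%). Of other genes with a TDG peak at an end, 20.3% held it. The YY1 motif AAGATGGCG was in 6 members (8.11%, against 1.92% of all promoters), and every match reached into the 50 bases after the start. All 6 were among the 63 of 74 members without a TDG peak, too few to set the groups apart. Of other genes with a TDG peak at an end, 3.28% held the motif. Of the 328 genes holding it on the chromosomes of the members, 22.3% had a TDG peak at an end. The GC box GGGCGG was in 7 of 11 members with a peak (63.6%) and 25 of 63 without (39.7%). It was in 75.4% of the 2228 other genes with a TDG peak at an end and in 46.3% of all promoters. The cAMP response element TGACGTCA was in 4 members (5.41%, against 2.33%), its shorter form TGACG, which it contains, in 29 (39.2%, against 23.8%), and the CCAAT box, searched as CCAAT, in 31 (41.9%, against 39.2%). A match describes the letters only, and no difference in motif shares was tested.

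These motifs were at or near the summit in some of the printed sequences. In Atp5g2 the summit fell inside the match to the longer NRF1 form, which spans 42 to 33 bases before the start. In Ndufb4 it fell on a GC box, and in Ndufv3 it was 6 bases from a CCAAT box. In the printed stretch of Sdhb the CCAAT box was 45 bases and the match to GCATGCGC 87 bases from the summit. In that of Ndufa11 the matches were 480 bases or more from it. Matches were also placed in stretches taken in the same way but not printed. In Ndufa6 the CCAAT box was 8 bases and the match to GCATGCGC 36 bases from the summit. The nearest match was 384 bases from it in Cox5b and 9640 bases in Ndufb6, and the stretch of Ndufa4 held no match. Matches outside these stretches were not placed. Among all genes of the table on the chromosomes of the members, TDG was at an end of 24.4% of the 603 with the shorter NRF1 form. The share was 22.6% of the 2017 with the ETS motif. Across the motifs searched it ran from 15.1% for the CCAAT box to 25.8% for TGACGTCA. It was 13.5% of all other genes of the table and 24.5% of other genes with CpG-rich promoters. The genes with a motif were not split by CpG content, and no link of TDG to a motif or to CpG was tested.

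The 77 members without a TDG peak at an end had none in the gene body either. No gene-body share of other genes was set beside this count, so it does not show whether the members differ from them. Some members, such as Ndufb4b (471 bases), are too short to hold a summit more than 1 kb from both ends. Their median distance to the nearest summit was 135620 bases, against 229433 for other genes without a peak at an end. The lower quartiles were 31984 and 56462 bases. For 9 of these members a summit lay within 10 kb. The closest were Ndufs6 (2766 bases), Atp5d (3013 bases), Uqcr11 (3310 bases), Cox7b (3936 bases) and Ndufs7 (4366 bases). Atp5d, Uqcr11 and Ndufs7 lie close together on chromosome 10, and the summit beyond Ndufs7 belonged to a peak of 9.11-fold. Over all 91 members the median distance to the nearest TDG summit was 87501 bases, with quartiles of 9411 and 234686. For the other genes the median was 156435 bases, with quartiles of 22664 and 728514.

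**Figure D4:**
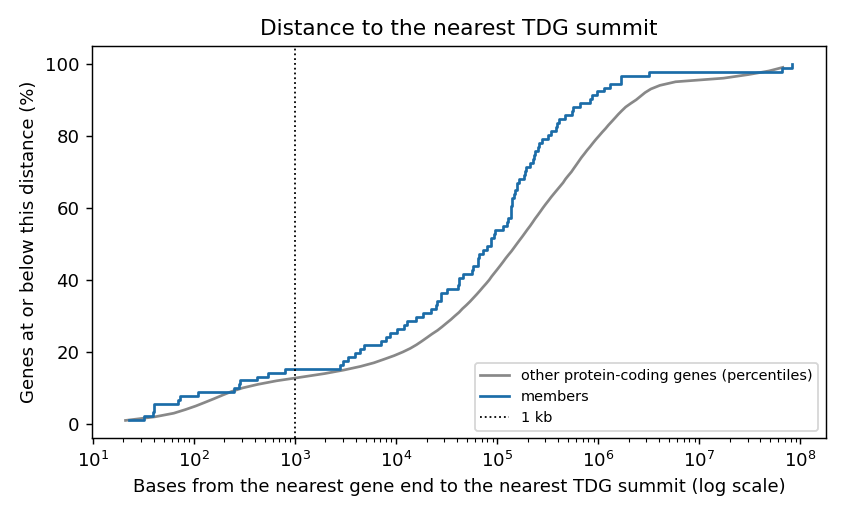
Cumulative share of genes (y axis, %) by the distance from the nearest gene end to the nearest TDG summit (x axis, bases, log scale) for the 91 members (blue steps) and the other protein-coding genes (grey line, percentiles); the dotted line is the 1 kb limit. The curves are close up to 1 kb, and the members lie above the grey line beyond it, with medians of 87501 and 156435 bases.

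Members with a peak came from 7 of the 19 chromosomes that hold a member. They were 3 of 5 on chromosome 15, 2 of 4 on chromosomes 4 and 11, 2 of 5 on chromosome 6, 2 of 6 on chromosome 17, 2 of 7 on chromosome 1 and 1 of 3 on chromosome 16. The 57 members on the other 12 chromosomes had none, among them 9 on chromosome 7 and 7 on chromosome 19. The share of other genes with a peak also varied, from 25.6% on chromosome 6 to 0.104% on the X chromosome, which holds Ndufa1, Ndufb11 and Cox7b. Weighted by the chromosomes of the members, the background was 13.0%, or 11.8 genes, against the 14 found.

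**Figure D5:**
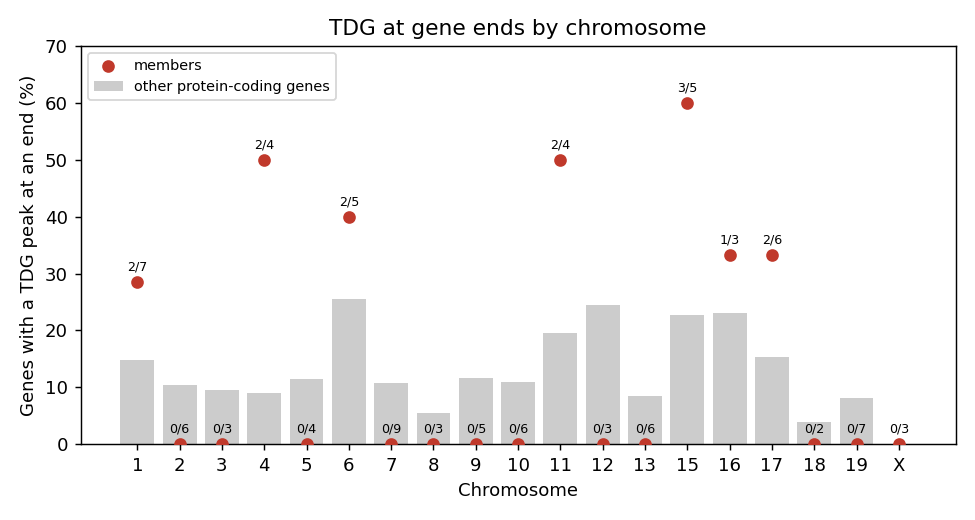
Share of genes with a TDG peak at an end (y axis, %) by chromosome (x axis); grey bars are the other protein-coding genes, red points the members, and the fractions give members with a peak over members. Members with a peak are on 7 chromosomes, and on chromosome 12, where 24.4% of other genes had a peak, none of the 3 members did.

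No member was assigned a p53 peak. None of the 91 genes held a p53 summit or was the protein-coding gene nearest to a summit, against 0.541% of the other genes. None had a p53 summit within 10 kb of an end, against 0.416% of the other genes. A count of 0 of 91 allows a share of up to 3.30% (3 counts of the total, counting error only). This is an approximate upper limit and not an exact interval as given for other shares. A share equal to the background could thus not be told from 0. The nearest p53 summits were 89217 bases from Cox5a, 237336 bases from Atp5pb and 256939 bases from Atp5g2. The last of these was the 45.6-fold p53 peak at Sp1. The median distance over the members on chromosomes with a p53 peak was 5654904 bases, and 5 members were on chromosomes 18 and X, which had no p53 peak.

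TDG and p53 shared no site at these genes. A p53 peak overlapped none of the 15 TDG peaks at member ends, and none had a p53 summit within 10 kb. Of the 2275 other gene-end TDG peaks, 4 (0.176%) overlapped a p53 peak and 13 (0.571%) had a p53 summit within 10 kb. With a background this low, 15 peaks are too few to show a difference.

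Genes that build and regulate the chain were counted in the same way. Of 49 assembly factor genes, 4 of them the Sdhaf genes counted above, 13 had a TDG peak at an end (26.5%, exact interval 14.9 to 41.1%). This interval lay above the background of 12.8% and overlapped that of the members. The 6 highest were Coa7 (8.07-fold), Ttc19 and Timmdc1 (each 7.29-fold), Cox14 (6.77-fold), Cox20 (6.51-fold) and Bcs1l (6.08-fold). Coa7, Cox14 and Cox20 act in complex IV assembly, Timmdc1 in complex I assembly, and Bcs1l and Ttc19 in that of complex III. Among the 35 with a CpG-rich promoter 11 had a peak (31.4%, exact interval 16.9 to 49.3%), and that interval held the 24.5% of other such genes. The lists were not tested against each other.

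Sco2, the p53 target among the assembly factors, had a TDG summit 30 bases from an end (4.90-fold, 25 reads). Its nearest p53 summit was 8782198 bases away. No assembly factor was assigned a p53 peak. Of the electron carrier and subunit genes outside the symbol pattern, Cycs (cytochrome c) had a TDG peak of 6.30-fold with 36 reads, and Cyc1 and Ndufab1 had none.

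Among 24 genes of mitochondrial gene expression and biogenesis, 7 had a TDG peak (29.2%, exact interval 12.6 to 51.1%, which held the background of 12.8%). They were Sp1 (9.11-fold), Esrra (6.77-fold), Tfam (6.16-fold), Tfb1m (6.06-fold), Tfb2m (6.02-fold), Ssbp1 (5.79-fold) and Yy1 (5.40-fold). Tfam, Tfb1m and Tfb2m encode factors that act on mitochondrial DNA and ribosomal RNA, and Esrra a nuclear receptor that controls energy metabolism. Nrf1, Gabpa and Ppargc1a had no TDG peak at an end. Sp1 was also assigned a p53 peak, whose summit was 387 bases from a gene end.

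In the tricarboxylic acid cycle, including pyruvate dehydrogenase, 5 of 16 genes had a TDG peak (31.2%, exact interval 11.0 to 58.7%, which also held it). Among them were Ogdh (7.55-fold), Mdh2 (7.29-fold), Pdhb (5.99-fold) and Fh1 (5.47-fold). With CpG-rich promoters only, 6 of 16 biogenesis genes (37.5%, exact interval 15.2 to 64.6%) and 3 of 9 cycle genes (33.3%, exact interval 7.49 to 70.1%) had a peak, and both intervals held the 24.5% of other such genes. Dld was assigned a p53 peak of 14.7-fold as the nearest gene, at a distance of 23958 bases.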

How the data were processed

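ChIP-seq peak lists of 2 B16 libraries were used, 1 per antibody and without replicates. Fixation was with 1% formaldehyde for 10 min and sonication to about 300 bp, per the labels' protocols. The submitters' processing notes name the build mm10 and the tools MACS2, Bowtie2, Trim Galore, Picard, ChIPseeker and deepTools, with no version or role. For the control library and the calling threshold, nothing is given in the sources used here. The authors deposited a fold enrichment (a ratio), −log10 p and −log10 q values, a score (10 times the −log10 q) and the summit offset for each peak. The lowest −log10 q in the TDG list was 3.02.

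Reads at summits were recovered by solving the MACS2 formulas for fold (pseudocount 1) and Poisson p together. The genome-wide background was 2.558 and the scale 0.924. Summit reads were divided by this scale, and backgrounds were left in scaled-down reads. The scale was the value that brought summits closest to whole reads, so the share given next is no independent check of it. Before a further choice among solutions by the same closeness, 95.98% of summits were whole within 0.05. Summits were assigned to genes with Python 3.11.15 and pandas 2.3.3, checked on simulated peaks. A p53 peak went to the genes holding its summit and to whichever gene end was nearest. Members were matched to RefSeq promoter windows by gene ID, the outermost window where several were listed. No set test, shuffle or p-value was computed. Shares are given with exact binomial intervals, apart from the approximate upper limit for the p53 count of the members. Intervals cover counting error only, and reads may include PCR copies.

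The members, lists and tests were chosen with earlier results of these data known. The genes named were all members with a TDG peak at an end, the 5 closest without, and up to 6 per further list (all 7 for biogenesis), except for a gene that is not reported here. Promoters printed were those of the 2 highest members, up to 2 pairs, and the member without a peak richest in CpG with at least 100 bases free of other genes. That last limit, Atp5g2, the further genes named and the CpG-rich, gene-pair, listed-start, core and subunit c comparisons were added after the values were seen.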

Additional observations from a re-analysis of the deposited data

How the results depend on the processing

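The count of members with a TDG peak at an end stayed between 13 and 15 of 91 in each setting given next. They were a window of 3 kb, peaks of −log10 q 5 or more, and any base of the peak in place of the summit. The last was local backgrounds under 10 scaled-down reads, chosen after seeing the data. Each time the members were above the background. Without the Sdhaf genes, a choice made after seeing the data, it was 13 of 87 (14.9%), and without the tissue-restricted isoforms 14 of 83 (16.9%). At or above the median fold enrichment of the list it fell to 9 of 91 (9.89%, against 6.93% of other genes). Without genes whose peak is shared with another gene end it was 7 of 84 (8.33%, against 9.04%), since such genes were removed from both sides. Among CpG-rich promoter windows, chosen after seeing the data, it was 8 of 46 (17.4%, against 24.5%). In these last 2 settings, and within 1 kb of any listed start (13.5% against 14.3%), the members were below the background. Among the same genes with a listed start they were above it at either end (14.9% against 13.5%) and at the start-side end (13.5% against 13.0%), both chosen after seeing the data. On the −log10 q scale the median of member peaks was 9.59 against 8.65 for other gene-end peaks, and for peaks at a single gene end the median fold was 5.92 against 5.99. The p53 counts were 0 under each setting. The other lists moved by at most 2 genes. Counting motifs only before the start gave 0 in place of 6 members for YY1. No paired analysis was possible because each group had 1 library. Depth limits these values, since library totals were not given and the member peaks rested on 17 to 43 reads.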
